A study of Mus musculus with 4 samples.

Results

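The Fc gamma receptors of the mouse were described in bone marrow-derived macrophages through 5 genes: Fcgr1, Fcgr3, Fcgr4, Fcgr2b and Fcer1g. The genes were chosen by symbol or transcript, not by their values, and 7 of the 56605 probes on the array read them, with 2 probes each for Fcgr3 and Fcgr2b. All 7 probes were well above background on all 4 arrays. In all, 20628 genes had a probe well above background on at least 1 array.

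The cells were grown from femoral marrow with macrophage colony-stimulating factor, and all came from male mice on the C57BL/6J background. The groups were Batf2-/- macrophages given R848 at 100 ng/ml for 8 h, untreated Batf2-/- macrophages labelled 0 h, wild-type macrophages given the same R848 treatment, and untreated wild-type macrophages labelled 0 h. There was no untreated culture at 8 h, so in every R848 difference below the effects of R848 and of 8 h more in culture cannot be told apart. R848, also called resiquimod, is a synthetic agonist of TLR7, an RNA sensor of the endosome, and Batf2 is a leucine zipper transcription factor related to AP-1. Each group had 1 array, so no difference below has a replicate check, a test or a p-value, and precision is limited by the small number of arrays. The labels do not say whether cells of a single mouse or of pooled mice were used, nor which part of Batf2 was deleted.

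Fc gamma receptors bind the constant part of IgG, so that macrophages can take up antibody-coated particles and respond to immune complexes. Fcgr1, Fcgr3 and Fcgr4 encode the ligand-binding chains of the activating receptors. These chains assemble with the common gamma chain, encoded by Fcer1g, whose tyrosine-based activation motif (ITAM) is phosphorylated by Src-family kinases and recruits the kinase Syk. Fcgr2b encodes the inhibitory receptor of the family, which carries its own inhibitory motif and recruits the lipid phosphatase SHIP1, the product of Inpp5d. The response of a macrophage to IgG depends on the balance between the activating receptors and Fcgr2b.

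Fcgr2b, Fcgr4 and Fcgr3 lie next to each other in that order on chromosome 1, in the RefSeq gene order of assembly GRCm38.p6. Fcer1g lies further along the same chromosome, and Fcgr1 is on chromosome 3. The 250 bases before a listed start of each gene are shown because Fcgr1 and Fcgr3 were lower, and Fcgr2b and Fcer1g higher, with R848 in both genotypes. They are taken from RefSeq promoters of build GRCm38.p6, found by symbol for 5 of 5 genes, and run 5′ to 3′ along the gene's own strand. For Fcgr3 the more upstream of the starts in the promoter table is used. It lies inside the span that the RefSeq gene table gives for Fcgr3, whereas the other 4 windows end at the edge of their gene's span, so the Fcgr3 window need not be that of the gene's outermost start. Capitals mark matches, on either strand, to the PU.1 core GAGGAA, to the interferon-gamma activation site (GAS) TTCNNNGAA, to a pattern of the interferon-stimulated response element (GAAA, any 2 bases, then GAAA), or to the AP-1 site TGANTCA.
Fcgr1, chr3:96293970-96294219, minus strand: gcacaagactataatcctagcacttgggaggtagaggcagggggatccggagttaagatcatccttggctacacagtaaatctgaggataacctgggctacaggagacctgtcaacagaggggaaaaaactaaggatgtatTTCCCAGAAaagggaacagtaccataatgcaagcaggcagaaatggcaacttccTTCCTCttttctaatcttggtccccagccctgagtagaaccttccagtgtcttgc
Fcgr3, chr1:171059404-171059653, minus strand: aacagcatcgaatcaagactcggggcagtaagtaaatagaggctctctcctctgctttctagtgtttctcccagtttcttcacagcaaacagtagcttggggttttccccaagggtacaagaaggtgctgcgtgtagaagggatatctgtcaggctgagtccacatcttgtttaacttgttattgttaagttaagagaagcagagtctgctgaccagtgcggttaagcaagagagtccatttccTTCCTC
Fcgr4, chr1:171018676-171018925, plus strand: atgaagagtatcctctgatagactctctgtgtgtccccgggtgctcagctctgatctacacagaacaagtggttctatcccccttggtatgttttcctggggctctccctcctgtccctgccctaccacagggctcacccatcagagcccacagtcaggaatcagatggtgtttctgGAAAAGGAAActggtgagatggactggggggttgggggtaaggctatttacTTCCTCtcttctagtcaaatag
Fcgr2b, chr1:170976072-170976321, minus strand: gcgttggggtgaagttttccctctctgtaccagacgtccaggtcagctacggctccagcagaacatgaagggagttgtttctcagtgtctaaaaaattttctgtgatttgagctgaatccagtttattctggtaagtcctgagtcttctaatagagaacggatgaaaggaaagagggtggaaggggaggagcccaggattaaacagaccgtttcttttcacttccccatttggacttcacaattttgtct
Fcer1g, chr1:171234350-171234599, minus strand: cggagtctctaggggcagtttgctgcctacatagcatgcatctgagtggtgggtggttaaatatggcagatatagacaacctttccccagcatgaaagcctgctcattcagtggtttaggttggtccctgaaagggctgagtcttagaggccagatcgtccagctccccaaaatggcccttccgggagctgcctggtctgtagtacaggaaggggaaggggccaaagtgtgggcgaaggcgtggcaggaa

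The PU.1 core, the centre of the binding site of a myeloid transcription factor, was present in the windows of Fcgr1 (positions -55 to -50 from the start), Fcgr3 (-6 to -1) and Fcgr4 (-22 to -17), each time on the opposite strand, where it reads TTCCTC. It was found in 23.3% of all 32851 promoter windows of this length. The Fcgr1 window also held a GAS match at -109 to -101, an element for which the promoter of the human gene is known, and 7.02% of all windows held one. The Fcgr4 window held the response element pattern at -73 to -64, against 2.98% of all windows. The AP-1 site was in none of the 5 windows and in 6.75% of all windows. The windows of Fcgr2b and Fcer1g held none of these 4 patterns. A broad NF-kB pattern (GGG, any 5 bases, then CC) was in the windows of Fcgr3, Fcgr4, Fcgr2b and Fcer1g, with overlapping matches in some of them and left in lower case, and in 45.8% of all windows. None of the marked stretches overlapped another. A match describes the letters only.

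Signals are given as multiples of the array's own 75th percentile, which was 252 and 262 processed signal units on the knockout arrays with R848 and untreated, and 265 and 278 on the wild-type arrays in the same order. Differences are on the log2 scale, and a gene is called at 2-fold, a log2 difference of 1. The only error that could be measured is technical: among 289 to 292 probes printed as 10 spots, the SD of a log2 difference over the spots was 0.071 for the knockout response, 0.074 for the wild-type response, 0.082 and 0.070 for knockout against wild type in the untreated and in the R848 state, and 0.099 when the wild-type response is taken from the knockout response. This spot SD leaves out the variation between mice and cultures. A member is said to differ when its difference exceeds that SD, and this does not say that the conditions differ. Levels are not compared between probes.

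Batf2 itself was read by 1 probe. Its signal was 0.043 and 0.10 in knockout cells with R848 and untreated, against 0.36 and 0.12 in wild-type cells with R848 and untreated, and the knockout value with R848 was not well above background. Batf2 was thus at least 6.20-fold lower in knockout than in wild-type cells with R848, and 1.21-fold lower in untreated cells. The position of this probe against the deletion is unknown here, so its untreated value is no check of the label. Macrophage markers were all measured (8 of 8, among them Csf1r, Adgre1 and Cd68), with summed signals of 806 and 739 in knockout cells with R848 and untreated, and 684 and 637 in wild-type cells.

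**Figure D1:**
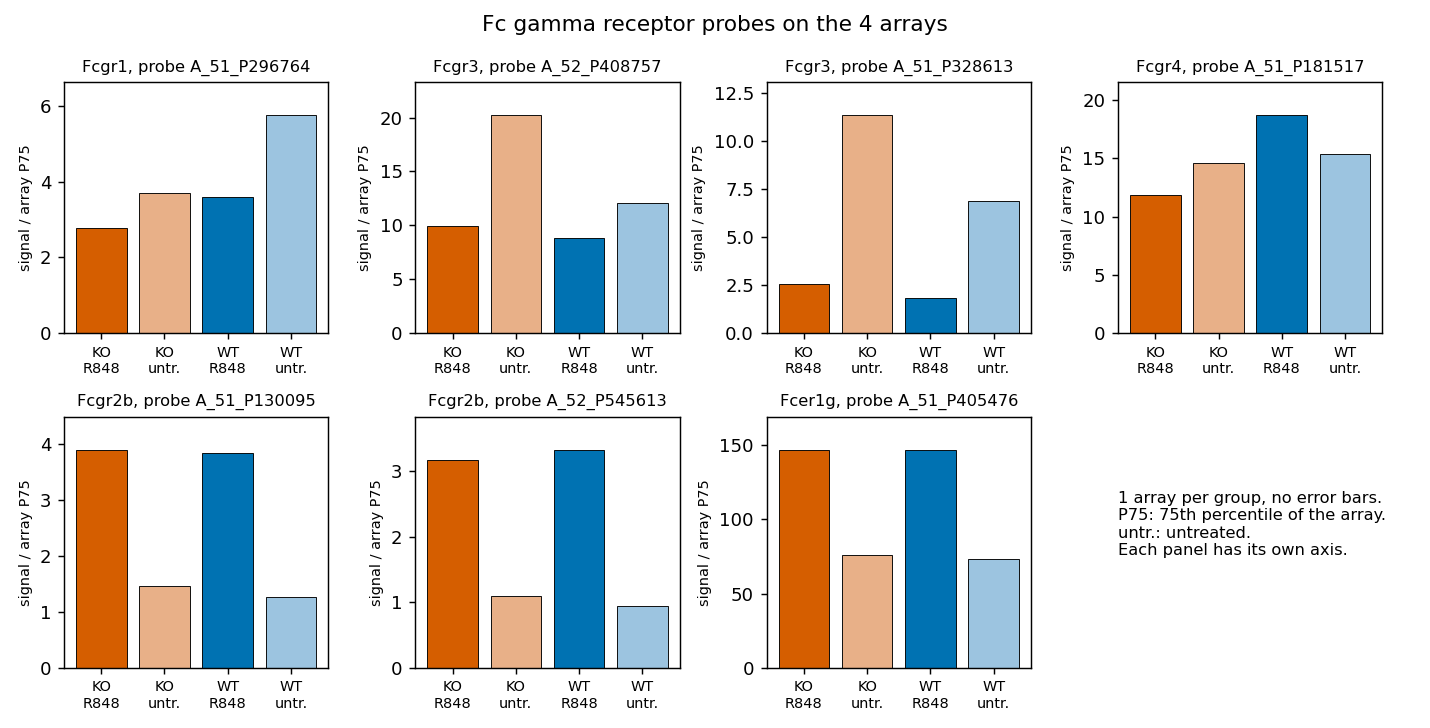
Signal of each of the 7 probes on the 4 arrays, as multiples of the array's 75th percentile (linear axes from 0, a separate axis for each probe, 1 array per bar, no error bars). Both Fcgr2b probes and Fcer1g are high with R848 in both genotypes, both Fcgr3 probes are highest in untreated knockout cells, and Fcgr1 is highest in untreated wild-type cells.

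Fcgr2b, the inhibitory receptor, was the member that rose most with R848, and it did so in both genotypes. Its brighter probe, for transcript variant 1, gave 3.89 with R848 and 1.46 untreated in knockout cells, and 3.84 with R848 and 1.27 untreated in wild-type cells. These are increases of 2.66-fold (log2 1.41) in knockout cells and 3.02-fold (log2 1.60) in wild-type cells. The other probe, for transcript variant 2, gave 3.18 and 1.1 in knockout cells with R848 and untreated, and 3.33 and 0.94 in wild-type cells, or 2.90-fold and 3.54-fold. Both probes thus went the same way, and the R848 arrays stood above the untreated arrays of either genotype. Between the genotypes with R848 the brighter probe differed by 0.02 on the log2 scale and the other by -0.07, each less than 1 spot SD.

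Fcer1g, the signalling chain that the activating receptors share, was higher with R848 in both genotypes, by less than Fcgr2b. Its signal was 147 with R848 and 76.1 untreated in knockout cells, and 147 with R848 and 73.0 untreated in wild-type cells. The R848 signals were 1.93-fold the untreated ones in knockout cells (log2 0.95) and 2.01-fold in wild-type cells (log2 1.005), so the wild-type value lay just past the 2-fold threshold and the knockout value just short of it. The 2 responses differed by -0.06, less than 1 spot SD. In each treatment state the genotypes also differed by less than 1 spot SD.

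Fcgr3, the activating low-affinity receptor, went the other way with R848. Its brighter probe, for NM_010188, gave 9.97 with R848 and 20.2 untreated in knockout cells, and 8.82 with R848 and 12.1 untreated in wild-type cells. The signal fell 2.03-fold in knockout cells (log2 -1.02), and in wild-type cells it was 1.37-fold lower with R848 (log2 -0.46). The other probe, designed on the cDNA entry M14215, gave 2.57 and 11.3 in knockout cells with R848 and untreated, and 1.82 and 6.84 in wild-type cells, decreases of 4.41-fold (log2 -2.14) and 3.76-fold (log2 -1.91). Both probes placed the arrays in the same order, with untreated knockout highest, then untreated wild type, knockout with R848 and wild type with R848.

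The 2 Fcgr3 probes disagreed on the size of the response, by -1.12 on the log2 scale in knockout cells and -1.45 in wild-type cells (M14215 probe minus NM_010188 probe), against a spot SD of 0.10 for such a contrast. They gave the same genotype difference in untreated cells, 0.74 and 0.73. The probe sequences were not used here, and where on the transcript each probe lies is not given in the files. The extracellular parts of mouse Fcgr3 and Fcgr2b are known to be very similar, and how far either probe also reads a related transcript was not tested.

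Fcgr1, the high-affinity receptor, had signals of 2.78 with R848 and 3.70 untreated in knockout cells, and 3.60 with R848 and 5.77 untreated in wild-type cells. It was 1.33-fold lower with R848 in knockout cells (log2 -0.41) and 1.60-fold lower in wild-type cells (log2 -0.68), short of the 2-fold threshold in both. Untreated wild-type cells stood highest and knockout cells with R848 lowest, and the other two arrays were closer together than 1 spot SD.

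Fcgr4, the activating receptor known for binding IgG2a and IgG2b, was the member whose R848 difference had opposite signs in the genotypes. It gave 11.9 with R848 and 14.6 untreated in knockout cells, and 18.7 with R848 and 15.4 untreated in wild-type cells. The signal with R848 was 1.23-fold lower in knockout cells (log2 -0.30) and 1.21-fold higher in wild-type cells (log2 0.28). Both differences were small, with 54.4% of genes at least as far from 0 in knockout cells and 55.2% in wild-type cells. The untreated arrays differed by less than 1 spot SD, and the R848 arrays were the highest and the lowest.

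**Figure D2:**
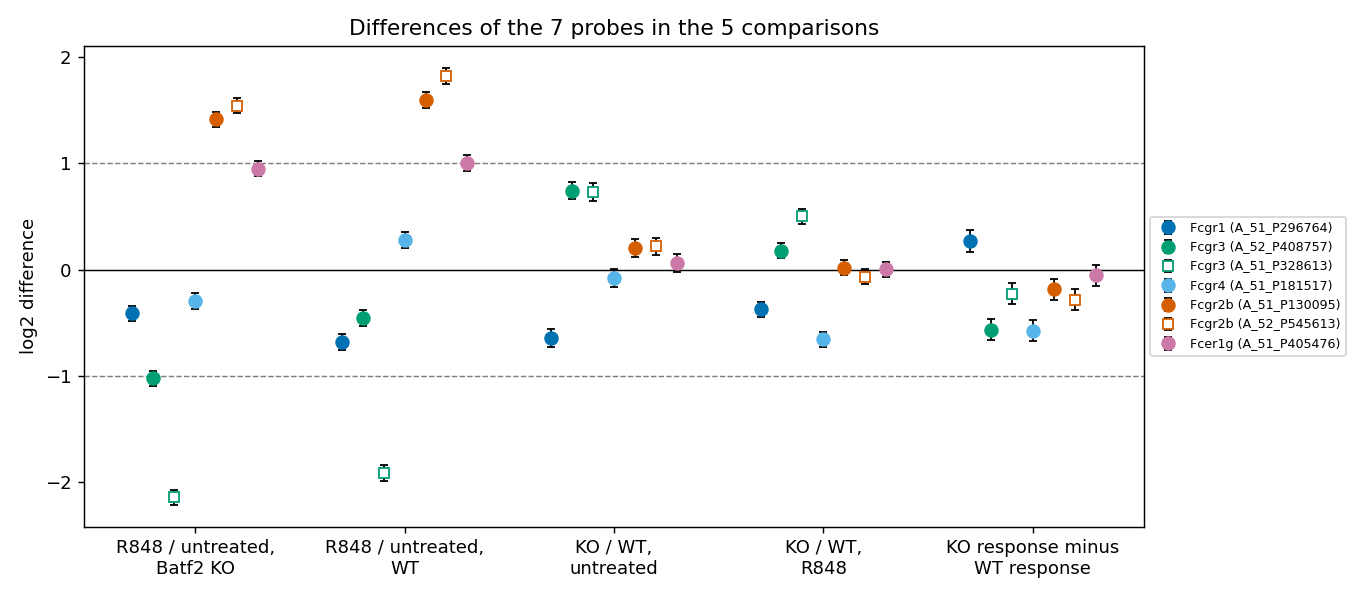
Log2 differences of the 7 probes (filled circles, the brightest probe of a gene, and open squares, the other probe of Fcgr3 and Fcgr2b) in the 5 comparisons, with error bars of 1 technical spot SD and dashed lines at 2-fold. In both R848 responses Fcgr2b and Fcer1g lie above 0 and Fcgr3 and Fcgr1 below it, and no probe reaches 2-fold between the genotypes.

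Setting R848 at 8 h against untreated cells at 0 h asks how the receptor set moves after TLR7 stimulation in each genotype, with time in culture part of the same difference. In knockout cells 1 member was called higher (Fcgr2b) and 1 lower (Fcgr3), against 6.84% of 19840 measured genes called higher and 6.58% called lower. In wild-type cells 2 members were called higher (Fcgr2b and Fcer1g) and 0 lower, against 6.19% and 7.01% of 18762 genes, or 13.2% in either direction, and 13.4% in knockout cells. The members' median log2 difference was -0.30 in knockout cells and 0.28 in wild-type cells, and the medians of all genes were -0.06 and -0.03. In both genotypes the members' median is the value of Fcgr4 alone, and each other member had the same sign in both. Fcgr2b stood above 95.9% of genes in the knockout response and above 97.2% in the wild-type response. For Fcer1g these shares were 92.7% and 93.8%, for Fcgr1 23.8% and 13.3%, and for Fcgr3 6.26% and 20.9%. These counts and shares use the brightest probe of each gene. The other Fcgr3 probe was past 2-fold lower in both genotypes, above only 0.98% of genes in knockout cells and 1.27% in wild-type cells.

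**Figure D3:**
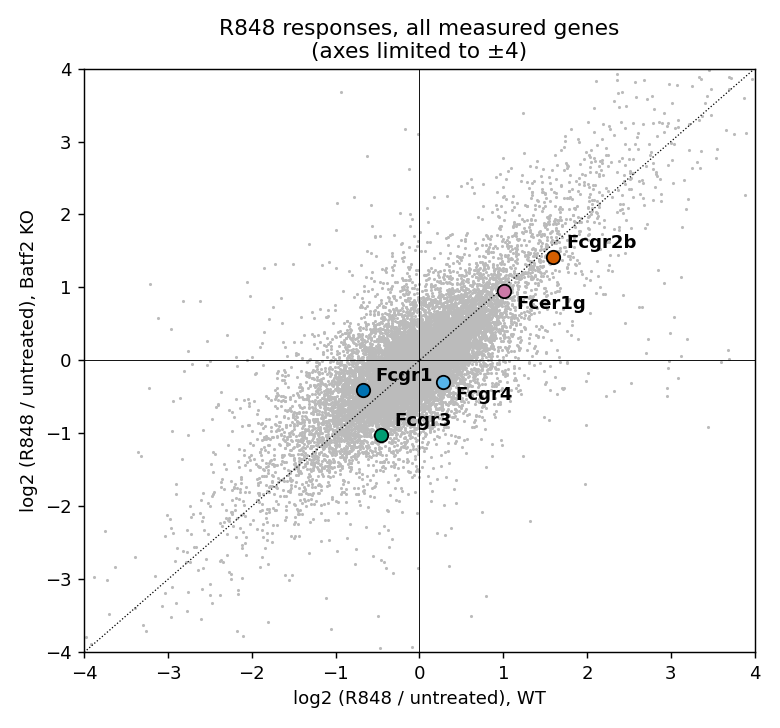
Log2 R848 response in Batf2 knockout cells (vertical axis) against that in wild-type cells (horizontal axis), with each measured gene a grey point, the 5 members in colour at their brightest probe, and a dotted line of equal response. Fcgr2b and Fcer1g lie at the upper right close to the line, Fcgr1 and Fcgr3 at the lower left, and Fcgr4 at the lower right.

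The R848 change of each other member was set against that of Fcgr2b, a contrast that does not depend on how the arrays are scaled. Fcgr2b was the member that rose most in both genotypes. Every such contrast is therefore below 0 by construction, and only its size adds to that ranking. The R848 change of Fcgr3 minus that of Fcgr2b was -2.43 in knockout cells and -2.05 in wild-type cells, a 5.40-fold and a 4.15-fold shift of the ratio toward Fcgr2b. For Fcgr1 the contrast was -1.82 and -2.27 (3.53-fold and 4.84-fold), and for Fcgr4 it was -1.71 and -1.32 (3.26-fold and 2.49-fold). The spot SD of these contrasts was 0.10 in either genotype. Fcer1g was closest to Fcgr2b, at -0.46 in knockout cells and -0.59 in wild-type cells. With the other probes of Fcgr2b and Fcgr3 the contrast of Fcgr3 reached -3.68 and -3.73. These are transcript ratios, and surface protein was not measured here.

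**Figure D4:**
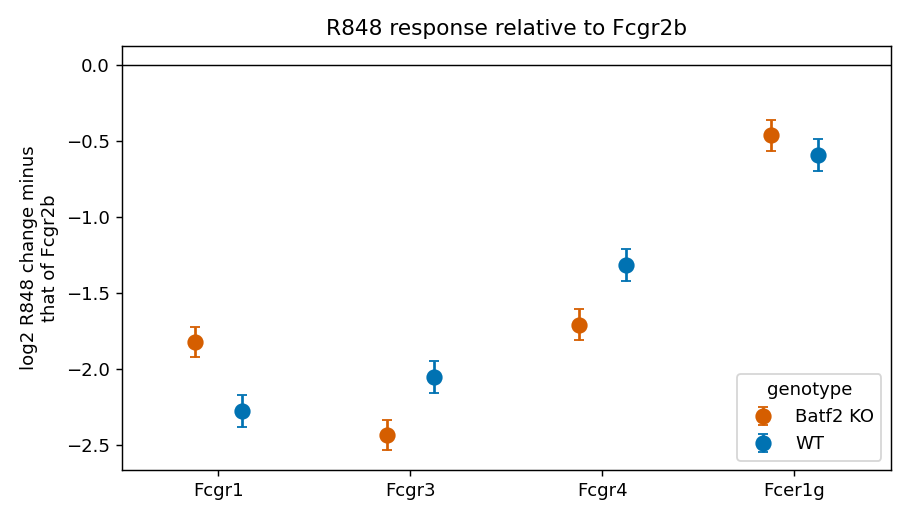
Log2 R848 change of each member minus that of Fcgr2b (brightest probes) in Batf2 knockout and wild-type cells, with error bars of 1 technical spot SD of the contrast. All 8 points lie below 0 because Fcgr2b rose most in both genotypes, and those of Fcgr1, Fcgr3 and Fcgr4 lie at or below -1.32.

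Knockout and wild-type cells were compared before treatment to show where the receptors differed without R848. No member was called, against 2.8% of 20300 genes called higher, 3.18% called lower and 5.99% in either direction. Fcgr3 was 1.67-fold higher in knockout cells at its brighter probe and 1.66-fold higher at the other, above 94.2% and 93.9% of genes. Fcgr1 was 1.56-fold lower (log2 -0.64), with 6.78% of genes further down. Fcgr2b stood at 0.20 and 0.22 at its 2 probes, Fcer1g at 0.06 and Fcgr4 at -0.08, the last 2 within 1 spot SD.

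With R848, again no member was called between knockout and wild-type cells, against 2.34% of 18768 genes called higher, 2.45% called lower and 4.79% in either direction. Fcgr4 was 1.57-fold lower in knockout cells (log2 -0.65), with 5.38% of genes further down. Fcgr1 was 1.30-fold lower (log2 -0.37). Fcgr3 was higher at both probes, by 0.18 and 0.50 on the log2 scale. Fcgr1 was thus lower and Fcgr3 higher in knockout cells in both treatment states.

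The knockout response minus the wild-type response reached 2-fold for none of the 5 members, against 3.14% of 18456 genes called higher, 2.5% called lower and 5.64% in either direction. The difference was -0.58 for Fcgr4 and -0.56 for the brighter Fcgr3 probe, but -0.23 for the other Fcgr3 probe. It was 0.27 for Fcgr1, -0.19 and -0.28 for the probes of Fcgr2b, and -0.06 for Fcer1g. The responses and the genotype comparisons use the same 4 arrays and are not independent of each other.

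Transcripts of other cell types that carry Fc receptors moved with the genotype. Of the mast cell and basophil markers 8 of 9 were measured, and their summed signal was 2.58 and 2.34 in knockout cells with R848 and untreated, against 13.4 and 22.7 in wild-type cells. In knockout cells 7 of the 8 were at least 2-fold lower untreated and 6 of the 8 with R848, against 3.18% and 2.45% of all genes. The untreated differences included those of Mcpt8 (log2 -5.56), a basophil protease, and Ms4a2 (log2 -2.94), the beta chain of the IgE receptor that signals through Fcer1g. The marker not called untreated was Fcer1a, another gene of that receptor, at -0.13. Of the granulocyte and precursor markers 10 of 11 were measured, with sums of 299 and 323 in knockout cells and 469 and 603 in wild-type cells. At least 2-fold lower in knockout cells were 6 of the 10 untreated and 5 with R848, against 3.18% and 2.45% of all genes. Their untreated differences were uneven, from -4.01 (Ctsg) to -0.16 (Ltf) on the log2 scale. The part of these cell types in the genotype differences of Fcgr1, Fcgr3 and Fcgr4 was not tested. Fewer cells of a type and less RNA per cell cannot be told apart in such samples. The B cell markers summed to 5.85 and 5.99 in knockout cells with R848 and untreated, and to 5.76 and 7.15 in wild-type cells, so Fcgr2b, which B cells also express, went up in both genotypes without an increase of that sum with R848 in either.

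The next lists hold other genes of the pathway, and their R848 counts stand against 6.84% of all genes called higher and 6.58% lower in knockout cells, and 6.19% and 7.01% in wild-type cells. Of 26 signalling genes downstream of the activating receptors, 9 were called higher and 0 lower in knockout cells (median 0.35), and 9 higher and 0 lower in wild-type cells (median 0.13). The Src-family kinases Lyn and Src rose by 1.73 and 1.74 on the log2 scale in knockout cells and by 1.85 and 1.66 in wild-type cells, whereas Fgr stood at 0.93 and 0.41. Syk, the kinase that docks on the phosphorylated ITAM, rose by 1.53 and 1.49, with all 4 of its probes going up. The scaffold Malt1, which links the receptors to NF-kB, rose by 3.52 and 3.01, and the adaptor Lcp2 (SLP-76) by 2.10 and 1.68, although 1 of its 3 probes went the other way in knockout cells. Between the genotypes 1 of the 26 was called untreated and 0 with R848, against 5.99% and 4.79% of all genes in either direction. The 1 called was Lcp2 at -1.21, with 2 of its 3 probes lower in knockout cells.

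In the inhibitory arm, of 11 genes 3 were higher and 0 lower in knockout cells (median 0.32), and 1 was higher and 1 lower in wild-type cells (median -0.07). The lower one was Inppl1, a relative of SHIP1, at -1.01. Inpp5d, the SHIP1 phosphatase recruited by Fcgr2b, had a log2 difference of -0.21 in knockout cells and -0.49 in wild-type cells. Ptpn6, the phosphatase SHP-1, was up by 1.40 in knockout cells and stood at 0.97 in wild-type cells. The adaptor Dok2 rose by 1.28 and 1.35. Dok3 had a log2 difference of 1.1 in knockout cells and of -0.19 in wild-type cells, and its responses differed by 1.29.

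Genes for engulfment and the actin cytoskeleton were close to the median of all genes, at -0.05 in knockout cells and -0.03 in wild-type cells over 23 genes. The motor protein Myo10, which takes part in Fc receptor phagocytosis, rose by 2.44 and 1.78 on the log2 scale in knockout and wild-type cells, and Rac2, a GTPase of blood cells, by 1.83 and 1.49. Wipf1, a partner of the actin regulator WASP, stood at -1.04 and -1.11, and Wasl, a WASP relative, at -1.07 and -0.53. Of the 6 NADPH oxidase genes, which include Rac2, 2 were higher in each genotype, with the catalytic subunit Cybb at 1.69 in knockout cells and 1.63 in wild-type cells.

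Other Fc receptors and IgG-binding proteins were measured for 11 of 14 genes and moved both ways, with 2 called higher and 3 lower in knockout cells and 1 higher and 3 lower in wild-type cells, against 6.84% and 6.58% of all genes in knockout cells and 6.19% and 7.01% in wild-type cells. Fcgrt, the heavy chain of the neonatal Fc receptor that recycles IgG, fell by 1.5 on the log2 scale in knockout cells and by 2.31 in wild-type cells. Fcmr, the IgM receptor, fell to a log2 difference of -2.09 and -1.83, and Lgals3, the lectin galectin-3, to -1.06 and -1.03. Trim21, a cytosolic antibody receptor, rose by 1.84 and 1.11.

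Among other receptors that pair with the Fcer1g chain, and related receptors and adaptors, 2 of 12 were called higher in knockout cells and 3 of 12 in wild-type cells, with 0 lower. Clec4e, the lectin Mincle, was up by 7.58 on the log2 scale in knockout cells and 6.04 in wild-type cells. Tarm1 was up by 7.12 and 6.45. Both were dim in untreated cells, with signals of 0.070 and 0.14 in knockout and wild-type cells for Clec4e and 0.17 and 0.21 for Tarm1. These signals were well above background, but the size of each rise rests on them. Clec4n, the lectin Dectin-2, stood at 0.77 and 1.05, and Clec4d at 0.47 and 0.82. Tyrobp, which encodes the related adaptor DAP12, stood at -0.28 and -0.38, so the Fcer1g and Tyrobp signals diverged with R848. Of the medians of this list, 0.09 in knockout cells and 0.03 in wild-type cells, neither was far from that of all genes. Between the untreated genotypes, 2 of the 12 were called lower in knockout cells and 0 higher, against 3.18% and 2.8% of all genes.

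Factors and receptors reported to regulate Fc gamma receptor transcription also went both ways, with 2 of 12 called higher and 3 lower in each genotype. Irf1, an interferon regulatory factor, had a log2 difference of 1.81 in knockout cells and 0.96 in wild-type cells. Spi1, the gene of PU.1, stood at 0.62 and 1.14. Irf8 stood at -1.22 and -1.04, and the TGF-beta receptor genes Tgfbr1 and Tgfbr2 at -1.65 and -1.45 in knockout cells and -1.76 and -1.13 in wild-type cells. Between the genotypes none of the 12 was called in either treatment state, against 5.99% of all genes untreated and 4.79% with R848. Irf1 stood at 0.86 in the R848 comparison.

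**Figure D5:**
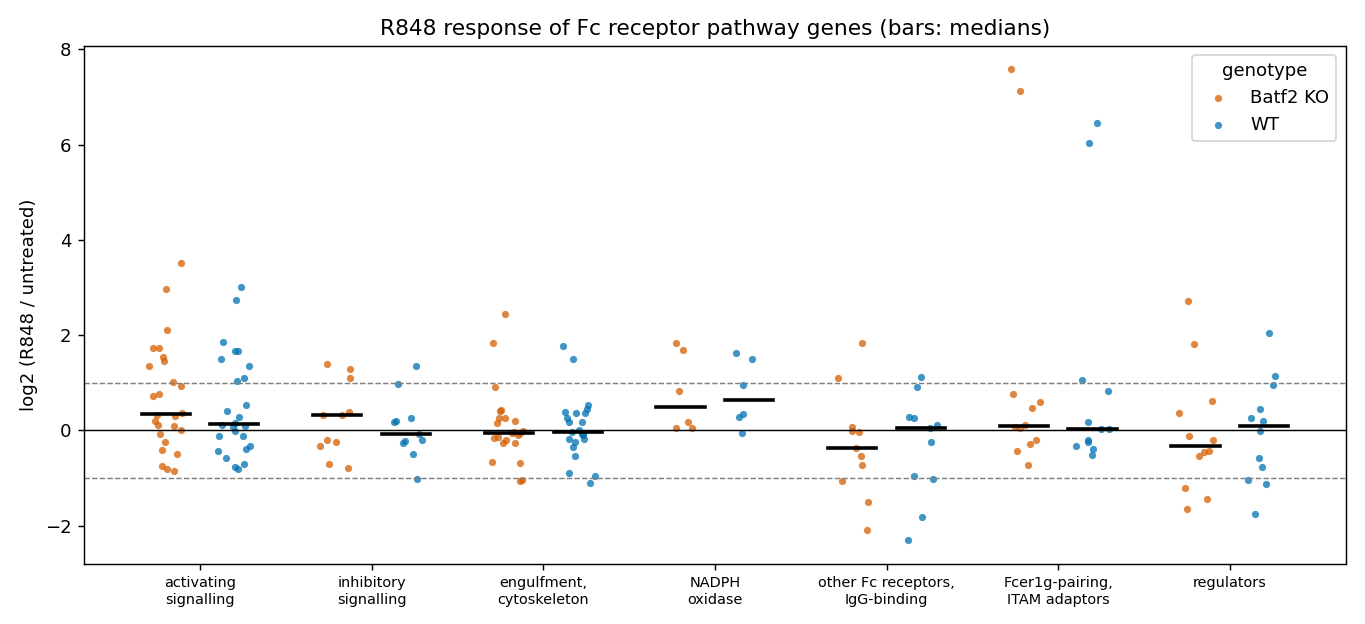
Log2 R848 differences of the measured genes of 7 Fc receptor pathway lists, with Batf2 knockout to the left of wild type in each list, each point a gene, black bars the list medians and dashed lines 2-fold. The activating signalling list has 9 genes above the upper line in each genotype and none below the lower line, and the largest values are Clec4e and Tarm1.

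Genes next to the receptors were looked at for the same direction. Beside the chromosome 1 cluster, Atf6, Dusp12 and Fcrlb on one side stood at 0.09, 0.78 and -0.01 on the log2 scale in the knockout response, and Cfap126 and Sdhc on the other at -0.75 and -0.22. In the wild-type response these 5 stood at -0.35, 0.71, 0.12, -0.94 and 0.04, so none was called in either genotype. Near Fcer1g, Adamts4, a metalloprotease, rose by 6.50 and 6.67 on the log2 scale in the knockout and wild-type responses.

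The genes with the most similar pattern were found by the Euclidean distance between the 4 centred log2 values, over 4 arrays and among 7892 other genes. Nearest to Fcgr2b were Pgap2, Rap2b and Eif4g2, at distances of 0.12, 0.12 and 0.13, and nearest to Fcer1g were Slc35d1, Timm17a and Cd82, at 0.027, 0.050 and 0.058. Nearest to Fcgr1 were Suv39h1, Rpa3 and Msi2 (0.07, 0.08 and 0.08), nearest to Fcgr3 were Tbc1d9, Sestd1 and Snx8 (0.11, 0.13 and 0.13), and nearest to Fcgr4 were Hnrnpul1, Pqbp1 and Zrsr2 (0.09, 0.10 and 0.12). Of the other members, Fcer1g was the closest to Fcgr2b, at a distance of 0.54, and Fcgr3 the furthest from it, at 2.28.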

How the data were processed

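Total RNA of 4 cultures was labelled with Cy3 and hybridised to Agilent mouse arrays with 1 colour, 1 array per group, and groups were taken from the labels. Feature Extraction 11.5.1.1 (Agilent) read the spots, as the submitters' processing notes and the headers state, and all 4 arrays lie on 1 slide read in 1 scan. The deposited processed signal is an intensity on a linear scale, corrected within the array for background and spatial trend per the file headers, with no normalization between arrays. The authors also deposited scaled intensity, equal to the processed signal times 1 factor per array (3.72 to 4.13, within 1% for 100% of spots), whose basis the sources used here do not give, and log2 ratios of pairs of arrays that the authors deposited beside it, which no result here uses. The headers give mm9 for the probe grid, and GRCm38.p6 was used only for names, gene order and promoter sequences.

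Outlier spots (70 to 115 per array) were left out, no spot was saturated, and the 75th percentile over the 56605 probes was subtracted from each array after taking log2. A probe counted as well above background where at least 0.5 of its spots were marked so, and a gene was taken at its brightest such probe. A probe that was dim on an array was set there to the lowest value of any probe well above background, unless its own was higher. Of the probes, 60.6% to 71.4% were well above background. Of the probes 40458 could be named, most through Entrez IDs (28867) or transcript accessions (10228).

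With 1 array per group only log2 differences were computed (Python 3.11.15, pandas 2.3.3, numpy 2.4.6) and called at 2-fold. The calling procedure was run on simulated data with planted changes above the 2-fold threshold and technical noise only. That run checks the computation and says nothing of the variation between mice and cultures. The members, gene lists and comparisons were chosen with earlier results of these data known. Named genes are the members, a fixed set of pathway genes, up to 4 of each list with the largest differences, the 3 measured genes on each side of a locus, and the 3 genes most alike each member among those at or above the 75th percentile on average. Alternatives were median centring, quantile normalization, normexp background correction (limma 3.58.1, R 4.3.3, offset 50), the authors' scaled intensity, a stricter and no filter on dim probes, the mean over probes, outlier spots kept, and areas left out where the median of 7 by 7 spots was raised by over 0.3 on 1 array. Normexp used the median spot signal, since the files hold no mean signal. Some genes that this rule names are not reported here. The other probe of Fcgr2b and Fcgr3 was an alternative added after seeing the data.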

Additional observations from a re-analysis of the deposited data

Results flagged for a closer look

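Fcgr4 had R848 differences of opposite sign in the genotypes, each larger than the technical spot SD. The log2 difference was -0.30 in knockout cells and 0.28 in wild-type cells, and the knockout response minus the wild-type response was -0.58. The difference between the responses was not tested, since each group has 1 array, and it was short of 2-fold. It lay between -0.60 and -0.56 under the 4 alternatives that could move it (median centring, quantile normalization, normexp and the authors' scaled intensity), and the others leave this probe's value as it is by construction.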

How the results depend on the processing

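Of the 10 alternatives, keeping outlier spots, leaving out raised areas, and a stricter or no filter on dim probes leave every member's value as it is by construction. Under the others the counts of called members kept within 1.5 times of the reported ones, apart from the wild-type response. In that response quantile normalization, normexp background correction and the authors' scaled intensity each gave 1 in place of 2. There the Fcer1g difference was 0.99, 0.93 and 0.99, against 1.005 as reported, just short of 2-fold. In knockout cells Fcer1g passed 2-fold with median centring (1.09), and Fcgr3 was short of it there (-0.88). In wild-type cells Fcgr3 passed 2-fold with the mean over probes (-1.18) and with its other probe (-1.91). Fcgr2b ranged from 1.23 to 1.55 in knockout cells and from 1.40 to 1.82 in wild-type cells. No called member changed sign under any alternative that could move its value. The differences of Fcgr2b and Fcer1g between genotypes with R848 changed sign with some settings, within -0.07 to 0.05 and -0.04 to 0.04. Median centring moved the median of all genes to 0.09 and 0.13 in the knockout and wild-type responses, and gave 1671 genes higher and 978 lower in knockout cells (1357 and 1305 as reported) and 1514 and 971 in wild-type cells (1162 and 1316 as reported). Normexp called fewer genes: 810 higher and 547 lower in the knockout response, 702 and 575 in the wild-type response, 111 and 219 between genotypes untreated (569 and 646 as reported), 104 and 148 with R848 (440 and 459 as reported), and 140 and 99 for the difference between responses (580 and 461 as reported). With neither the filter nor the floor on dim probes, 2016 genes were lower in the wild-type response, 936 higher and 836 lower between genotypes untreated, 1100 and 676 in the R848 state, and 1283 and 1051 when the 2 responses were compared. Requiring probes well above background on every array compared gave 323 higher and 497 lower between genotypes untreated, and 259 and 335 in the R848 state. The authors' scaled intensity gave 486 higher and 321 lower between genotypes with R848. No member's spot lay in a raised area. No paired analysis was possible because each group has 1 array and no test was made. All 7 probes were well above background on every array. The lowest Fcgr2b values, 1.23 in knockout cells and 1.40 in wild-type cells, came with normexp, so its size depended on the background correction. The lack of replicates limited all of these values.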
